A study of Mus musculus with 3 samples.

Results

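The genes described here are 10 genes of growth factors and their receptors that act between mesenchymal cells and their neighbours: the platelet-derived growth factor (PDGF) receptors Pdgfra and Pdgfrb, the PDGF ligands Pdgfa, Pdgfb and Pdgfc, the heparin-binding factors Ptn (pleiotrophin) and Mdk (midkine), and the ligands Hgf, Fgf2 and Fgf7. They were chosen with earlier results of these data known. Their probe sets were taken by name, as those whose annotation gives one of these symbols and no other gene, and each is shown apart. This gave 21 probe sets for the 10 genes, out of 34945 probe sets for 18193 genes on the array.

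Expression was measured on Affymetrix mouse genome arrays in 3 kinds of NIH3T3 cells, an immortalized fibroblast line from NIH/Swiss mouse embryos, all grown with 10% calf serum. Control cells were untransduced by their label. The mtYAP cells stably overexpressed a mouse YAP whose serine 112, which LATS kinases phosphorylate in Hippo signalling, had been replaced by alanine, and the YAP cells overexpressed the wild-type protein. Both overexpressing lines came from retroviral infection and were the cells that survived puromycin, a treatment the control label does not mention. A virus with empty vector appears in the study's methods too, but not in connection with this array. There was 1 array per condition, so no value below has an error, no difference was tested, and each difference compares single arrays.

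Levels are on the log2 scale, where a difference of 1 is a 2-fold difference. A level of 6 or more on an array was treated as clearly measured. Per array 33.0% to 34.0% of all probe sets had it, and 17 of the 21 probe sets of these genes reached 6 on at least 1 array. Levels of different probe sets depend on their probes and are not compared with each other. One free-text field of the control sample refers to embryonic stem cells, and the rest of its fields give NIH3T3. All 8 fibroblast markers, such as Col1a2 and Vim, lay between 8.28 and 14.03 on the 3 arrays, whereas none of 4 endothelial and 6 epithelial markers reached 6. Of 4 leukocyte markers, Csf1r stood at 6.09, 6.54 and 6.29 in control, mtYAP and YAP, and the other 3 stayed under 6, with Ptprc, which marks all leukocytes, at 2.28, 2.33 and 2.20. Of 5 pericyte and muscle markers, Des (6.11, 6.52 and 6.34) and Cspg4 (7.05, 6.59 and 6.74) reached 6, and of 4 neural markers Sox10 did, in YAP (5.96, 5.98 and 6.46). The part of such cells in the results was not tested. Thy1 and S100a4, both fibroblast markers, were lower in mtYAP, with log2 differences of −1.67 and −1.68. The rest of the 8 fibroblast markers differed by less in mtYAP, from −0.86 for Col1a1 to −0.17 for Col3a1. Yap1 itself read 7.30, 6.63 and 6.61 on one probe set and 9.84, 9.15 and 9.51 on the other. Which stretch of Yap1 mRNA these detect was not known here, while the vectors brought in only its coding part, so neither checks the labels.

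PDGFs are dimeric ligands that bind a pair of receptor tyrosine kinases, PDGFR-α and PDGFR-β, and they are classical mitogens of fibroblasts, which carry both receptors. Pleiotrophin and midkine form a small family of secreted heparin-binding proteins that signal through receptors such as PTPRZ1, ALK, syndecans and LRP1. HGF and FGF7 are made by fibroblasts and act mainly on epithelial cells, through the receptor MET and through an epithelial form of FGFR2, while FGF2 acts on fibroblasts too and leaves cells without a signal peptide.

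Both PDGF receptors, pleiotrophin and HGF were lower in cells overexpressing mtYAP, by 3.41-fold to 70.5-fold depending on the probe set, and Pdgfc was higher by 2.62-fold and 2.91-fold. Of the 21 probe sets, 12 lay below a log2 difference of −1 in mtYAP, against 4.67% of all probe sets, and 2 lay above 1, against 4.61%. In cells overexpressing wild-type YAP, 5 lay below −1, against 1.5% of all, and 2 lay above 1, against 1.69%. The median of the 21 differences was −1.77 in mtYAP and −0.47 in YAP, where the median over all probe sets was 0.01 and 0.00. Pdgfra, Ptn and Hgf enter it with 3 probe sets each, Mdk and Fgf2 with 1, so it does not describe a typical gene. By the brightest probe set of each gene, Pdgfra, Pdgfrb, Ptn and Hgf lay below −1 in mtYAP and Pdgfc above 1. Pdgfa, Pdgfb, Mdk, Fgf2 and Fgf7 stayed inside the limits, at 0.41, 0.39, 0.29, −0.09 and −0.84. In YAP, Ptn and Hgf lay below −1 and Pdgfc above 1. Since these genes are mostly well expressed in fibroblasts, the shares among the 14809 probe sets that reached a level of 6 on at least 1 array are also given. There, 8.56% lay below −1 and 8.7% above 1 in mtYAP, and 2.4% and 3.15% in YAP. Of the 17 probe sets of these genes with such a level, 12 lay below −1 and 2 above 1 in mtYAP, and 5 and 2 in YAP. Probe sets of 1 gene share their transcript, and both comparisons share the control array, so these counts are not independent of each other. The RNA came from whole cultures, in which fewer cells expressing a gene and less RNA per cell cannot be told apart.

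**Figure D1:**
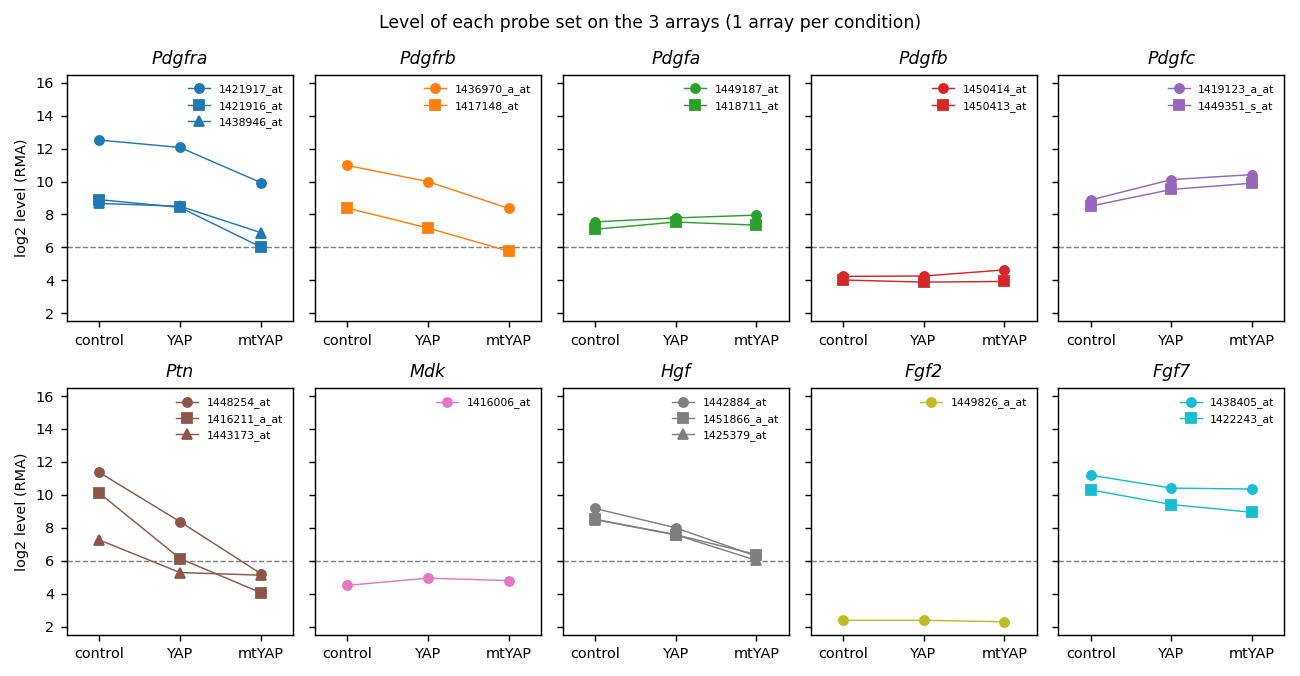
Log2 level (vertical axis) of each probe set of the 10 genes on the control, YAP and mtYAP arrays (horizontal axis), with 1 point per array, a line for each probe set and the level of 6 as a dashed line. Ptn, Pdgfrb, Hgf and Pdgfra step down from control to YAP to mtYAP, Pdgfc steps up, and Pdgfb, Mdk and Fgf2 stay under 6 on every array.

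Pdgfra encodes PDGFR-α, the receptor that binds PDGF-A, PDGF-B and PDGF-C chains. Its probe set 1421917_at read 12.52 in control, 9.94 in mtYAP and 12.07 in YAP. Probe set 1421916_at, designed on the same sequence record, read 8.90, 6.03 and 8.43, and 1438946_at read 8.67, 6.90 and 8.50. On all 3 probe sets the mtYAP array was clearly the low one, and the control and YAP arrays stood close together. The log2 differences from control were −2.58, −2.87 and −1.77 in mtYAP, which is 5.98-fold, 7.31-fold and 3.41-fold lower. In YAP they were −0.45, −0.47 and −0.17, inside the range of −0.81 to 0.86 that held the central 95% of all probe sets. Directly between the lines, mtYAP minus YAP was −2.13, −2.40 and −1.60.

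Pdgfrb encodes PDGFR-β, which binds mainly PDGF-B and marks pericytes and many fibroblasts. Probe set 1436970_a_at read 10.98 in control, 8.37 in mtYAP and 10.00 in YAP. On 1417148_at the levels were 8.39, 5.77 and 7.18, the one in mtYAP under 6. Both placed YAP between control and mtYAP. The differences in mtYAP were −2.61 and −2.62, 6.11-fold and 6.15-fold lower, so the probe sets differed from each other by 0.01. In YAP the differences were −0.98 and −1.21, and one of the probe sets lay just inside the limit of −1 and the other beyond it.

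Among the ligands, Pdgfa stayed near control and Pdgfb was not clearly measured. Pdgfa, the A chain, read 7.55 in control, 7.96 in mtYAP and 7.79 in YAP on 1449187_at and 7.10, 7.35 and 7.54 on 1418711_at, with differences from 0.24 to 0.44. Pdgfb encodes the B chain, the cellular counterpart of the v-sis oncogene, and its probe sets read between 3.89 and 4.63 on all arrays. These lie below the level of 6, so a difference in Pdgfb could not be measured here.

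Pdgfc encodes PDGF-C, a ligand of PDGFR-α that is secreted in a latent form and freed by proteolysis. Probe set 1419123_a_at read 8.88 in control, 10.42 in mtYAP and 10.12 in YAP. On 1449351_s_at, designed on the same sequence record, the levels were 8.51, 9.90 and 9.52. Both overexpressing lines stood above control and close to each other. The differences were 1.54 and 1.39 in mtYAP, or 2.91-fold and 2.62-fold, and 1.24 and 1.01 in YAP, or 2.36-fold and 2.01-fold. Between mtYAP and YAP they were 0.30 and 0.38. Of the 10 genes, Pdgfc was the only one with a probe set above 1 in either line, and in mtYAP this ligand of PDGFR-α was higher while the receptor transcript was lower.

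The sequences before the annotated starts of Pdgfc, the gene above control in both lines, and of Ptn, the gene furthest below it, are printed because YAP acts through TEAD factors, which bind the letters GGAATG. RefSeq promoter windows of build GRCm38.p6, from 250 bases before to 50 bases after a start, were held for 7 of the 10 genes in 9 windows, and not for Pdgfrb, Pdgfb and Mdk. The 250 bases before the start are chr3:81036166-81036415 on the plus strand for Pdgfc and chr6:36810180-36810429 on the minus strand for Ptn, written 5′ to 3′ with GGAATG or its reverse complement in capitals.
Pdgfc: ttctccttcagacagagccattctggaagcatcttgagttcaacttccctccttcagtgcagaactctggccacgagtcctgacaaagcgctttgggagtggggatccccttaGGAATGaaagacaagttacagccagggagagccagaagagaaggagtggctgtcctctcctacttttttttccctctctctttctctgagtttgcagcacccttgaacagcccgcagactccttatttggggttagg
Ptn: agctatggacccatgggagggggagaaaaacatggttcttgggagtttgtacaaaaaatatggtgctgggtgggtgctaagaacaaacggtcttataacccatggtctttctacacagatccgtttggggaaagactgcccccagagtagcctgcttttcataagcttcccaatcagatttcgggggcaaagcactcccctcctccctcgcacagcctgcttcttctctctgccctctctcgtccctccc
In Pdgfc the letters lie 137 to 132 bases before the start, and their reverse complement lies at bases 39 to 44 after it, within cctggcggCATTCCtcgccg. No other window of these genes held GGAATG on either strand, Ptn included, so 1 of 9 windows did, beside 14.7% of all 32851 windows. CACGTG, the E box bound by MYC, was held by 0 of the 9 windows and 7.15% of all, and TGANTCA, the AP-1 letters, searched on both strands, by 0 of 9 and 7.81% of all. A match of 6 letters is a description of the sequence and does not show that a factor binds there, and these windows are short.

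Ptn, which encodes pleiotrophin, stood furthest from control. Probe set 1448254_at read 11.36 in control, 5.22 in mtYAP and 8.37 in YAP. Probe set 1416211_a_at, designed on the same sequence record, read 10.11, 4.06 and 6.13, and 1443173_at read 7.26, 5.12 and 5.28. All 3 were highest in control and lowest in mtYAP, where each lay under 6, so the sizes given for that line are uncertain. The differences in mtYAP were −6.14, −6.05 and −2.14, which is 70.5-fold, 66.3-fold and 4.41-fold lower, and in YAP they were −2.99, −3.98 and −1.98, or 7.94-fold, 15.8-fold and 3.94-fold lower. Counted from the lowest of all 34945 differences, the first pair of probe sets ranked 3 and 4 in mtYAP and 16 and 4 in YAP, and 1443173_at ranked 278 and 85. The probe sets of Ptn did not give the same size. They spanned 4.00 in mtYAP and 2.0 in YAP, while among 3718 genes with at least 2 probe sets that reached 6 the median span was 0.27 and 0.22 and the span stayed under 0.96 and 0.71 for 95% of genes. The difference of mtYAP minus YAP was −3.15 and −2.07 on the first pair, and −0.16 on 1443173_at, which was under 6 in both lines.

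Mdk, the other member of the pleiotrophin family, was read by 1 probe set at 4.50 in control, 4.79 in mtYAP and 4.94 in YAP. It was not clearly measured on any array, and its differences of 0.29 and 0.44 are those of a probe set under 6.

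Hgf encodes hepatocyte growth factor, also called scatter factor. Probe set 1442884_at read 9.17 in control, 6.27 in mtYAP and 8.0 in YAP, 1451866_a_at read 8.52, 6.37 and 7.58, and 1425379_at read 8.49, 6.02 and 7.57. The order control, YAP, mtYAP was the same on each, and all values reached 6. The differences in mtYAP were −2.90, −2.15 and −2.47, which is 7.46-fold, 4.44-fold and 5.54-fold lower, and those in YAP were −1.17, −0.94 and −0.92. For mtYAP minus YAP the differences were −1.73, −1.21 and −1.55.

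Fgf7, keratinocyte growth factor, was lower by smaller amounts. Probe set 1438405_at read 11.19 in control, 10.35 in mtYAP and 10.41 in YAP. On 1422243_at the levels were 10.30, 8.94 and 9.41. Both lines lay below control and near each other. The differences were −0.84 and −1.36 in mtYAP and −0.78 and −0.89 in YAP, so that 1 of the 4 passed the limit, and mtYAP minus YAP was −0.06 and −0.47. Fgf2, basic fibroblast growth factor, was read by 1 probe set at 2.38, 2.29 and 2.38, far below 6 on all arrays, so its expression could not be followed.

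**Figure D2:**
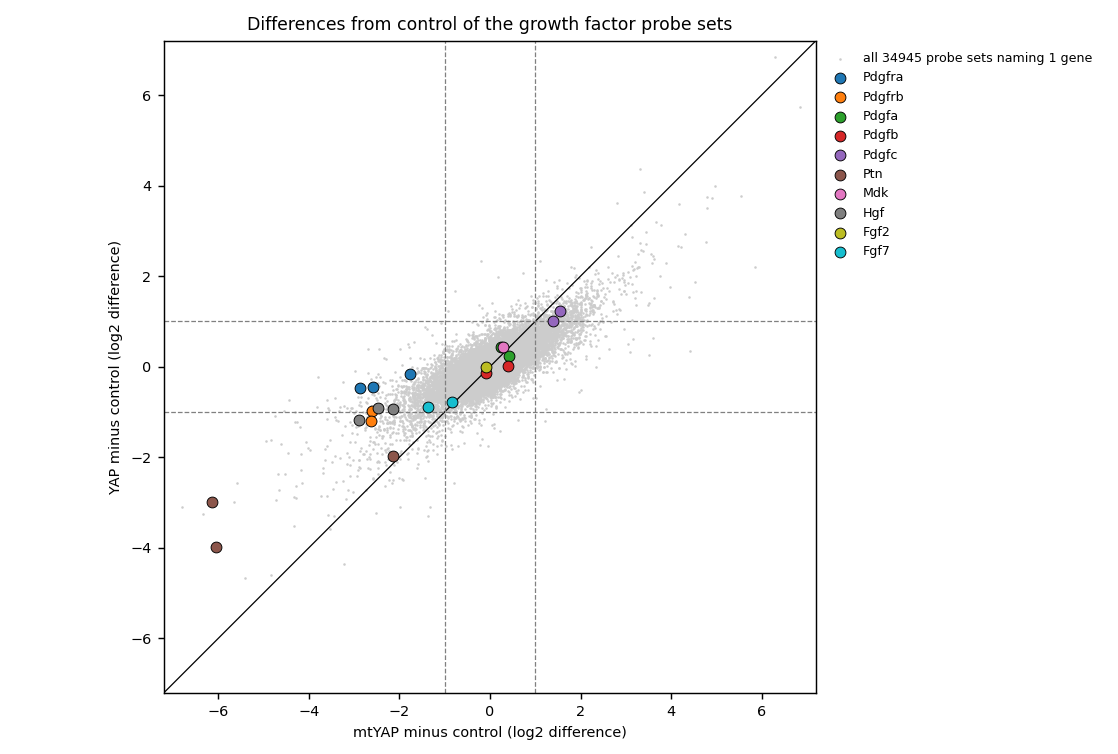
Each point is a probe set, placed by its log2 difference from control in mtYAP along the horizontal axis and in YAP along the vertical axis, for the 21 probe sets of the 10 genes (coloured points) and all 34945 probe sets that name 1 gene (grey points), with dashed lines at 1 and −1 and a solid line of equal differences. A pair of probe sets of Ptn lie near −6 in mtYAP, and those of Pdgfra lie below −1 in mtYAP and within 0.5 of control in YAP.

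Comparing mtYAP with YAP directly, which leaves the control array out, 10 of the 21 probe sets lay below −1, against 1.66% of all probe sets, and 0 lay above 1, against 0.993%. Among probe sets that reached 6, the shares of all were 3.15% and 1.59%. The 10 were all 3 probe sets of Pdgfra and of Hgf, both of Pdgfrb and the first pair of Ptn. The probe sets of Pdgfa, Pdgfc and Fgf7 differed between the lines by 0.47 or less in size.

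The genes differed in how much of the mtYAP difference was also seen with wild-type YAP. On the log2 scale, the YAP difference amounted to 9.60% to 17.4% of the mtYAP difference for the probe sets of Pdgfra, 37.5% and 46.2% for Pdgfrb, and 37.2% to 43.7% for Hgf. It was 65.4% for the Fgf7 probe set past the limit, and 80.5% and 72.7% for Pdgfc. For Ptn the values were 48.7%, 65.8% and 92.5%, but each of its probe sets lay under 6 in mtYAP and 1443173_at also in YAP, so they do not measure how much of the difference was kept. Over all 1632 probe sets below −1 in mtYAP, the median was 46.7% and the middle 50% ran from 31.0% to 65.2%, and over the 1611 above 1 the median was 56.4% with a middle range of 41.4% to 70.0%. Pdgfra lay under and Pdgfc over the middle range of its direction, and Pdgfrb and Hgf lay within it. For all 14 probe sets past the limit in mtYAP, the YAP difference was the smaller, as it was for 95.5% of all probe sets past it. These probe sets are those past the limit in mtYAP and both differences use the control array, so the percentages are a description.

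**Figure D3:**
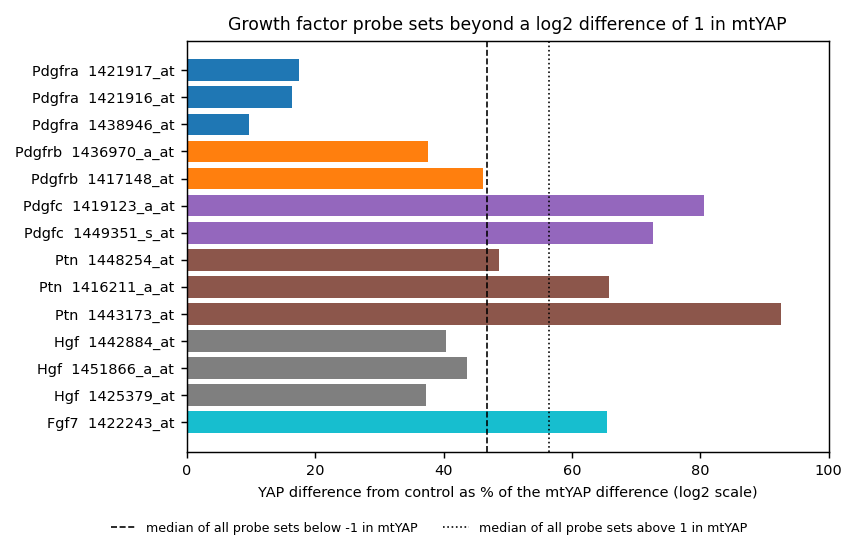
YAP difference from control as a percentage of the mtYAP difference, both on the log2 scale (horizontal axis), for the 14 probe sets beyond a log2 difference of 1 in mtYAP (vertical axis). The dashed line is the median of all probe sets below −1 in mtYAP (46.7%) and the dotted line that of all above 1 (56.4%). Pdgfra has the shortest bars, and the longest are those of Pdgfc and of 1443173_at of Ptn, the latter under 6 in both lines.

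The receptors, processing enzymes, carriers and adaptors of these factors were followed in 8 lists of 93 genes, of which 91 had values and 51 reached a level of 6, each gene by its brightest probe set. Of the 51 genes, 6 lay above 1 and 7 below −1 in mtYAP, against 8.58% and 8.91% of 8918 genes on the array with such a level, and 2 lay above 1 and 3 below −1 in YAP, against 3.15% and 2.42%. The median difference of the 51 genes was −0.43 in mtYAP and −0.13 in YAP, where that of all 8918 genes was −0.02 and 0.03.

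Of 7 FGF receptors and co-receptors, 3 reached a level of 6, and 2 of these lay below −1 in mtYAP. Of all 8918 genes with such a level 8.91% did, but 3 genes are too few for a share. Fgfr1, the main FGF receptor of fibroblasts, read 10.47 in control, 8.27 in mtYAP and 9.54 in YAP, differences of −2.20 and −0.93. Fgfr2, whose epithelial form is the receptor of FGF7, read 7.05, 6.0 and 5.86, differences of −1.05 and −1.19, with YAP under 6. Fgfrl1, a receptor-like protein without a kinase domain, differed by 0.10 and −0.30.

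Met, the receptor of HGF, went the other way from its ligand, at 8.92 in control, 9.89 in mtYAP and 9.15 in YAP, a difference of 0.97 in mtYAP that stayed just inside the limit. Plaur, the receptor of urokinase, stood at 5.94, 7.55 and 6.63, with a difference of 1.61 in mtYAP, and the other 8 genes listed for HGF activation stayed under 6. Plat, the tissue plasminogen activator, which cleaves latent PDGF-C, read 8.79, 5.55 and 8.46 with differences of −3.24 and −0.33. Its level in mtYAP was under 6, so the size of that difference is uncertain. Furin, which trims precursors of PDGF-A and PDGF-B, differed by −0.52 and −0.26, and the other 5 proteases of that list were under 6. Pdgfrl, a receptor-like protein, differed by −0.46 and 0.13, and Pdgfd, the remaining PDGF ligand, was not clearly measured.

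Of 10 receptors and binding proteins of pleiotrophin and midkine, 6 reached 6 and none lay past the limit in either line by its brightest probe set. Of all 8918 genes with such a level, 8.58% lay above 1 and 8.91% below −1 in mtYAP, and 3.15% and 2.42% in YAP. Ptprz1 and Alk stayed under 6 on all arrays. Lrp1 differed by −0.83 in mtYAP and −0.56 in YAP, the syndecans Sdc1, Sdc2, Sdc3 and Sdc4 by −0.82 to −0.43 and −0.59 to −0.23, and Ncl, nucleolin, by 0.83 and 0.85. Of the other 4 probe sets of Ncl, 3 lay past the limit in at least 1 line, at 1.12 and 1.14, at 1.09 and 1.55, and at 0.53 and 1.20 in mtYAP and YAP.

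Among 20 other FGF ligands, 18 stayed under 6 on every array. Fgf10, a relative of Fgf7 that also acts on the epithelial form of FGFR2, read 6.99, 6.08 and 6.0, with differences of −0.91 and −0.99. Fgf21, a hormone-like member, read 3.87 in control, 9.72 in mtYAP and 6.08 in YAP. Its co-receptor Klb stayed under 6.

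The list with most genes past the limit was that of FGF carriers and heparan sulphate, on which FGF2, HGF, pleiotrophin and midkine depend for binding to cells. Of its 15 genes that reached 6, 4 lay above 1 and 3 below −1 in mtYAP, against 8.58% and 8.91% of all 8918 such genes. In YAP 1 lay above 1 and 2 below −1, against 3.15% and 2.42%. Only the list of adaptors had more genes that reached 6. Of the genes past the limit in mtYAP, Glce and Hs6st2 reached 6 on every array. Gpc6, Sulf2 and Fgfbp3 reached it only in control, and Gpc4 and Sulf1 only in mtYAP. The counts therefore rest largely on genes that passed the level on the array where they were high. Gpc6, a glypican, read 7.26 in control, 2.94 in mtYAP and 3.74 in YAP, differences of −4.32 and −3.52 whose size is uncertain, since both lines lay far under 6. Glce, the epimerase that makes iduronic acid in heparan sulphate, read 7.94, 10.09 and 9.84 on its brightest probe set, differences of 2.15 and 1.90. The study's own list of genes higher in both lines gave Glce a smaller rise in each. Sulf2, which removes 6-O sulphate groups outside the cell, read 7.38, 5.78 and 5.24, differences of −1.60 and −2.14. Gpc4, another glypican, read 5.91, 7.44 and 5.87, differences of 1.53 and −0.04. Sulf2 was under 6 in both lines and Gpc4 in control and YAP, so these sizes are uncertain. The remaining genes past the limit in mtYAP were Hs6st2, a 6-O sulphotransferase, at 1.15, Sulf1 at 1.07 and Fgfbp3, a carrier of FGFs, at −1.01. Sulf1 was under 6 in control (5.04) and Fgfbp3 in both lines (5.02 and 5.49), so their sizes are uncertain too. This list therefore held differences in both directions.

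Of 20 adaptors and enzymes that bind activated receptors, all reached 6 and 1 lay past the limit, below −1 in mtYAP. Of all 8918 genes with such a level, 8.91% lay below −1 in mtYAP and 8.58% above 1. The gene was Pik3r1, the p85α subunit of PI 3-kinase, with levels of 10.49, 8.46 and 9.76 and differences of −2.03 and −0.73. The medians of the list were −0.15 and 0.03. Shc1 and Cblb stood at −0.99 and −0.98 in mtYAP, and Grb2, Crk, Nck1 and Ptpn11 within 0.31 of control in both lines.

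**Figure D4:**
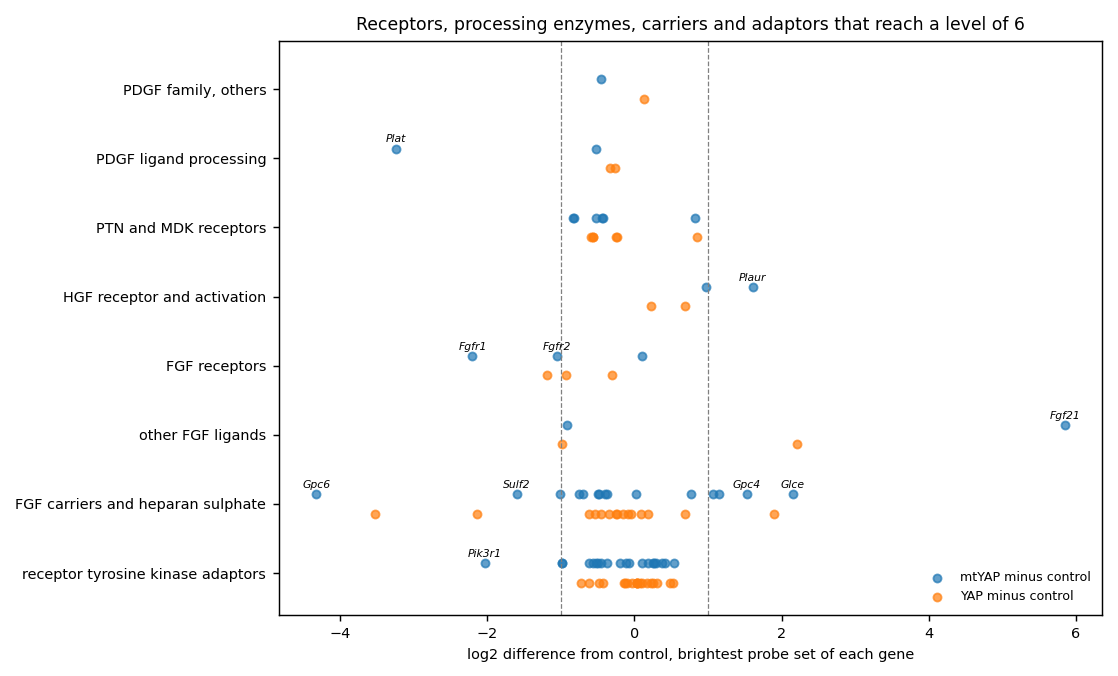
Log2 difference from control (horizontal axis) of the brightest probe set of each gene that reached a level of 6 on at least 1 array, in mtYAP (blue) and YAP (orange), for 8 lists of receptors, ligands, processing enzymes, carriers and adaptors (vertical axis), with dashed lines at 1 and −1. Named genes are the up to 4 genes of a list with the largest difference past the limit, placed above their mtYAP value. Fgf21, under 6 in control, lies furthest to the right at 5.85, and Gpc6, under 6 in both lines, furthest to the left at −4.32.

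The genes with the most similar pattern were found for the 5 members past the limit by their brightest probe set, as the smallest distance between the 3 levels, each gene centred on its own mean, among 8918 genes. With 3 arrays many genes lie close to each other, so this only describes the levels. For Ptn they were Cdo1 at a distance of 0.19, Aox3 at 0.40 and AW551984 at 0.40 on the log2 scale. For Pdgfra they were Ctxn1, Gstm1 and Hspa1b at 0.067 to 0.096, and for Pdgfrb Il6ra, Plpp3 and Chst11 at 0.091 to 0.093. For Hgf they were Tgfb3 at 0.054, Trib2 at 0.064 and C1s1 at 0.11. For Pdgfc they were Cenpf, Tagln2 and Higd1a at 0.0082 to 0.029.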

How the data were processed

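Biotin-labelled cRNA of 3 cell lines was hybridized to 3 arrays, 1 per condition. The deposited values are log2 levels of 45037 probe sets. The authors subtracted background and normalized these deposited values with RMA, and the submitters' processing notes also name affy. The sources used here give no versions, and do not say whether further arrays entered the normalization. The values carry 2 decimals. The number of arrays limits the precision.

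Gene symbols came from the platform annotation, and the 34945 probe sets with 1 gene symbol were used (932 have several and 9160 none). No probe set named one of the 10 genes together with another. All 10 Entrez identifiers were found, with the same symbol, among the RefSeq genes of GRCm38.p6. Differences were subtracted per probe set, and those beyond 1 in size were counted beside the same counts over all probe sets. No test was run. The counting was tested on simulated data.

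The 10 genes and the lists, written from general knowledge, were chosen with earlier results of these data known. Named are all 10 genes, up to 4 genes of each list with the largest difference past 1 among those reaching a level of 6, and 3 genes of similar pattern for each of the 10 past 1. Other list genes were named after their values were seen. Alternatives were other scalings (median, loess with a span of 0.3, quantile), levels of at least 6 or 8, limits of 0.65 and 2, leaving out identifiers that end in _s_at, _x_at or _a_at, shared probe sets kept, and other ways to join probe sets. Python 3.11.15, numpy 2.4.6, pandas 2.3.3, statsmodels 0.14.6 and matplotlib 3.10.9 were used.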

Additional observations from a re-analysis of the deposited data

How the results depend on the processing

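With 1 array per condition no spread can be given, so a result was taken as kept where it stayed on its side of the limits of 1 and −1, or, for a count, within 1.5 times. Of 92 single differences recomputed, 85 were kept, 6 passed the limit newly and 1 no longer did. Of those past the limit, 0 turned direction. The 6 were Pdgfrb in YAP (−0.98), which stood at −1.02 after loess or quantile scaling, at −1.10 averaged over both probe sets and at −1.21 by its dimmer probe set, and Fgf7 in mtYAP, at −1.10 as the mean and −1.36 by its dimmer probe set. The other was Hgf in YAP, at −0.92 by its dimmest probe set. The differences of Pdgfb, Mdk and Fgf2, under 6 on every array, count as kept only because they stayed inside the limits. Among them Pdgfb changed sign by its dimmer probe set, from 0.39 to −0.09 in mtYAP and from 0.02 to −0.13 in YAP. Of 66 counts, 57 were kept, though some of these could not move. No probe set named one of the 10 genes with another gene, so keeping shared probe sets left each count the same. Removing the median shifted the differences by 0.01 or less in size. The 2 probe sets of Pdgfc above 1 became 0 in mtYAP and 0 in YAP without identifiers that end in _s_at, _x_at or _a_at, as both do, 0 and 0 at a limit of 2, and 1 in YAP after loess and 1 after quantile scaling. Of those below −1 in YAP, 5 became 10 at a limit of 0.65 and 2 at a limit of 2, and of the 10 below −1 between mtYAP and YAP, 4 lay below −2. Scaling moved no value of the 21 probe sets by more than 0.090. Levels under 6 have no defined lower end, so the size of a difference with one side under 6 is uncertain. Examples are Ptn and Plat in mtYAP, Fgfr2 in YAP, and Gpc6, Sulf2 and Fgfbp3 in both lines. Others are Fgf21, Plaur, Sulf1 and Gpc4, which were under 6 in control.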
